A study of Homo sapiens with 6 samples.

Results

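CDKN1A, GDF15, BTG2 and GADD45A are genes that cells commonly switch on when they stop dividing or meet stress, and their transcripts were followed here in SK-Hep1 cells after knockdown of TARDBP. The members were chosen by probe identifier on an Illumina HumanHT-12 array. They are 5 of 47231 probes, of which 2 are annotated to CDKN1A and 1 each was taken for GDF15, BTG2 and GADD45A, so 4 genes are described among the 20046 that the probe annotation names. The annotation used here lists 4 of the 5 probes. ILMN_1770085 has no entry in it, and its assignment to BTG2 rests on the choice of members.

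CDKN1A encodes p21, which binds cyclin-dependent kinases (CDKs) and the replication clamp PCNA and so holds back entry into S phase. BTG2 is an antiproliferative protein that recruits the CCR4-NOT complex, which shortens the poly(A) tails of mRNAs. GADD45A is a small stress-induced protein that binds PCNA, p21 and the mitotic kinase CDK1 and activates the kinase MAP3K4. GDF15 is a secreted cytokine of the TGF-beta superfamily that signals through the receptor GFRAL with RET as its coreceptor. All 4 genes are textbook transcriptional targets of the tumour suppressor protein p53, and GDF15 and GADD45A are also raised by the integrated stress response.

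The arrays held total RNA of SK-Hep1, an adherent human line labelled as hepatocellular carcinoma, with 3 arrays labelled siTARDBP (knockdown of TARDBP) and 3 labelled siLuc (control). TARDBP encodes TDP-43, an RNA-binding protein that acts in pre-mRNA splicing and mRNA stability. The series asked what role TARDBP plays in this line. Neither the time after transfection nor the origin of the 3 samples of a group in separate cultures is given in the labels, so the p-values cover only how far these samples differ among themselves, which could be technical variation. All groups share 1 cell line. The RNA came from whole cultures, in which a change in every cell and a change in a share of the cells cannot be told apart.

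The knockdown was visible in its target. The single TARDBP probe, ILMN_1677532, read 136, 84.0 and 96.5 intensity units on the siTARDBP arrays, against 265, 214 and 203 on the siLuc arrays. The groups did not overlap, and the probe exceeded the estimated background level on 2 of 3 siTARDBP arrays and on all 3 siLuc arrays. After normalisation TARDBP was lower by a log2 difference of -0.98 ± 0.11 (standard error; 1.98-fold, limma adjusted p = 1.6e-05).

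Over the whole table, 15136 probes exceeded background on at least 3 arrays and were tested, and 1696 of them (11.2%) passed an adjusted p of 0.05, 888 higher and 808 lower in siTARDBP. When arrays were scaled to the median of all probes, 282 were higher and 733 lower (27.8% higher, against 52.4%), and the median tested probe moved by -0.088 on the log2 scale. The smallest difference that passed was 0.28 on the log2 scale, and the median standard error was 0.10. Median intensities lay between 64.4 and 80.9 on the siTARDBP arrays and between 64.7 and 83.0 on the siLuc arrays. The arrays numbered 2 in each group had lower background levels, 81.5 in siTARDBP and 81.4 in siLuc, against 116 to 128 for the other 4. Of 10 hepatocyte markers with a probe, 8 did not exceed background on enough arrays to be tested, among them AFP, APOA1 and TTR, while ALB and SERPINA1 did. ALB lay close to the background level, reading 118.152 on siTARDBP replicate 3 where the level was 118.151. The list of endothelial and mesenchymal markers held 15 genes, with the epithelial CDH1 among them. Of these, VIM, CD44, CDH2, SPARC and THY1 exceeded background on all 6 arrays. The other 10 were not tested for the same reason. Among them were CDH1, the mesenchymal COL1A1, COL1A2 and FN1 and the endothelial PECAM1, VWF and CDH5.

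None of the 4 growth arrest genes passed the test after TARDBP knockdown. Of the 5 probes, 4 were tested, and limma called 0 of them at an adjusted p of 0.05, against 11.2% of all tested probes. Of the 4, 1 (BTG2) had an unadjusted p under 0.05, as had 25.5% of all tested probes. On the normalised scale, the siTARDBP and siLuc arrays did not overlap for 2 of the 4 tested probes, those of CDKN1A and BTG2. This held for 29.5% of all tested probes. In the deposited intensities the groups overlapped for both of these probes. After normalisation, BTG2 was higher in siTARDBP and lay just outside the threshold. The tested CDKN1A probe was then lower on all 3 siTARDBP arrays without passing, and GDF15 and GADD45A overlapped between the groups.

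**Figure D1:**
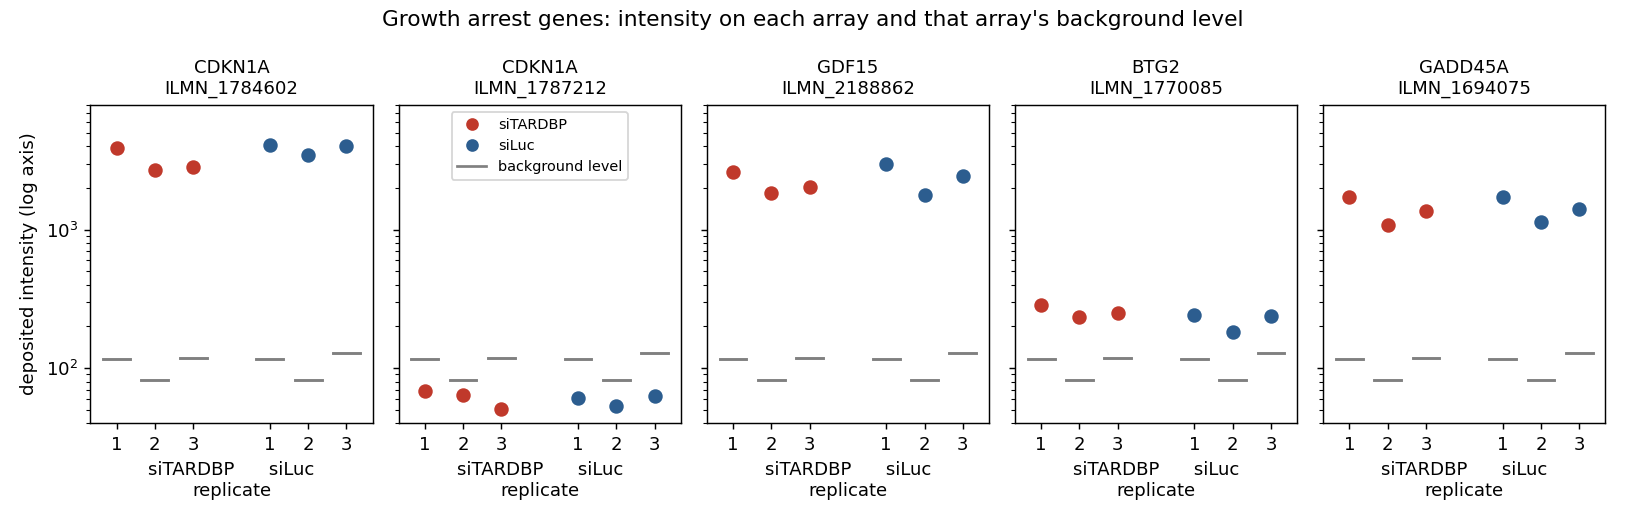
Deposited intensity (log axis) of the 5 growth arrest probes on each array, siTARDBP replicates at the left and siLuc replicates at the right of each panel, with each array's estimated background level as a grey line. The CDKN1A probe ILMN_1787212 lies under the line on all 6 arrays and the other 4 probes lie above it on all 6.

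The CDKN1A gene lies at chr6:36676463-36687332 (GRCh38.p14) and has 12 RefSeq transcripts. Its probe ILMN_1784602 read 3895, 2699 and 2850 intensity units on the siTARDBP arrays, against 4102, 3439 and 4040 on the siLuc arrays. The normalised log2 levels were 11.78, 11.64 and 11.66 in siTARDBP and 11.83, 11.84 and 11.84 in siLuc, so all 3 knockdown arrays lay below all 3 controls. The siLuc arrays lay close together, with an SD of 0.0068, against 0.075 in siTARDBP (n = 3 each). The log2 difference was -0.15 ± 0.091 (standard error; 1.11-fold lower, limma adjusted p = 0.34). Its unadjusted 95% interval ran from -0.34 to 0.047, which is 0.791-fold to 1.03-fold of the control level on this probe. The difference was negative in all 19 alternatives in which the probe was tested, between -0.28 and -0.12, and passed the threshold in none of them.

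The other CDKN1A probe gave no reading above background. ILMN_1787212, annotated to a different RefSeq transcript of the gene, read 68.1, 63.8 and 50.6 units in siTARDBP and 61.0, 53.3 and 62.6 in siLuc. These readings were between 42.8% and 78.3% of the background level of their own array, and the groups overlapped. The probe was above background on 0 of 6 arrays, was not tested and gives no fold change. Both probes are therefore annotated to CDKN1A, and 1 of them detected its transcript here. The gap between them, ILMN_1784602 minus ILMN_1787212 on the normalised log2 scale, was 5.48, 5.17 and 5.66 in siTARDBP and 5.63, 5.66 and 5.65 in siLuc. Its mean was 5.44 ± 0.25 in siTARDBP and 5.65 ± 0.017 in siLuc (SD, n = 3 each). The difference of -0.21 had a two-sided exact permutation p of 0.40, where 3 arrays against 3 allow no p under 0.10. The log2 SD in siTARDBP was 0.24 for ILMN_1787212 and 0.075 for ILMN_1784602. Since ILMN_1787212 read background, the gap carries that probe's noise and does not compare 2 measured transcripts.

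BTG2 lies at chr1:203305519-203309602 (GRCh38.p14) and has 1 RefSeq transcript. ILMN_1770085 read 284, 234 and 252 intensity units in siTARDBP, against 244, 182 and 239 in siLuc. On the normalised log2 scale the siTARDBP arrays stood at 8.0, 8.21 and 8.20 and the siLuc arrays at 7.84, 7.74 and 7.90. Every knockdown array lay above every control array, the nearest pair being siTARDBP replicate 1 and siLuc replicate 3. The means were 8.13 ± 0.12 in siTARDBP and 7.83 ± 0.083 in siLuc (SD, n = 3 each).

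The log2 difference of BTG2 was 0.31 ± 0.098 (standard error), which is 1.24-fold with a 95% interval from 1.07-fold to 1.43-fold. Its unadjusted p in limma was 0.0057 and its adjusted p was 0.051, so it did not pass. By p-value it ranked 1708 among 15136 probes, 12 places behind the last probe that passed. The adjusted p fell under 0.05 in 4 of 19 alternatives. It was 0.045 with cyclic loess, 0.045 when only probes above background on all 6 arrays were tested, 0.029 with array weights and 0.038 without siTARDBP replicate 1. Without the other single arrays it lay between 0.061 and 0.18. The difference was positive in all 19 alternatives, between 0.23 and 0.38. It was 0.47 between the arrays numbered 2, which had the lower background and are 1 per group, and 0.23 in the other 4 arrays, where the adjusted p was 0.30.

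**Figure D2:**
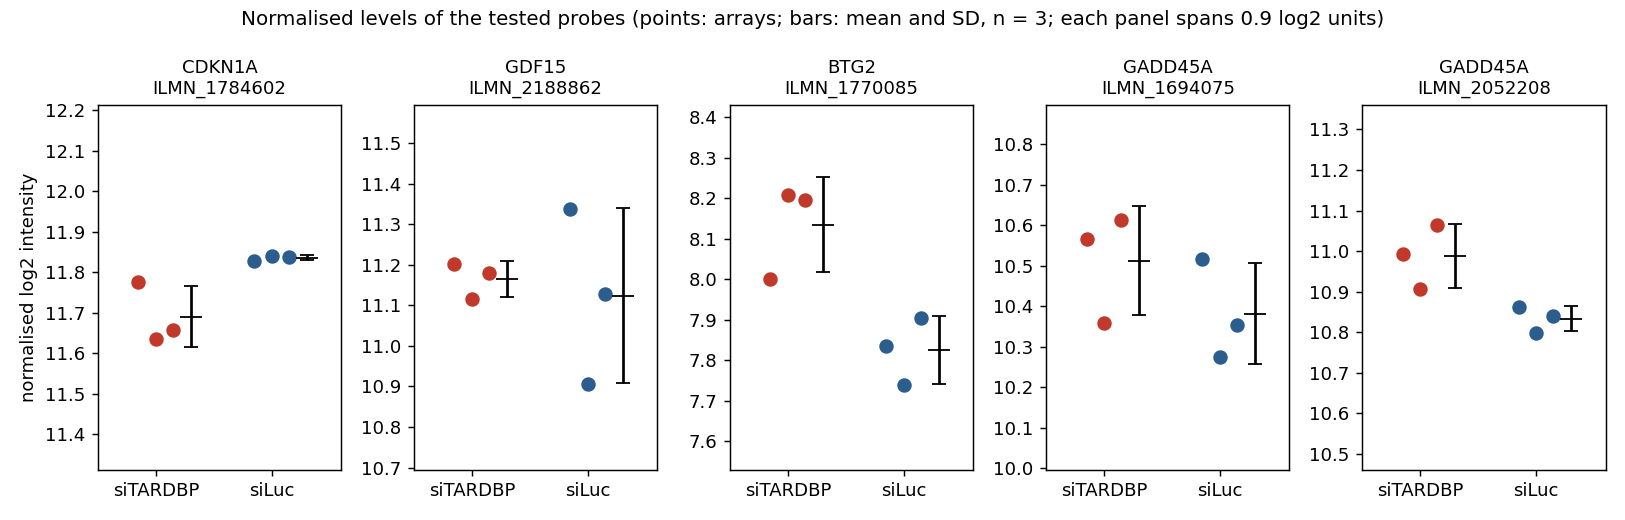
Normalised log2 intensity of the tested probes, with siTARDBP at the left and siLuc at the right of each panel, points for arrays and bars for mean and SD (n = 3). BTG2 is higher and CDKN1A lower on all 3 siTARDBP arrays, GDF15 spreads widely among the siLuc arrays, and the second GADD45A probe is shown beside the first.

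GDF15 lies at chr19:18386158-18389176 (GRCh38.p14). ILMN_2188862 read 2610, 1836 and 2027 intensity units in siTARDBP, against 2990, 1788 and 2445 in siLuc. The normalised log2 levels were 11.20, 11.12 and 11.18 in siTARDBP and 11.34, 10.91 and 11.13 in siLuc. All 3 knockdown arrays fell within the range of the controls, whose SD of 0.22 was larger than the 0.044 of the knockdown arrays (n = 3 each). The log2 difference was 0.042 ± 0.11 (standard error; 95% interval 0.878-fold to 1.21-fold, limma adjusted p = 0.85). Its sign turned with the setting. It was positive in 15 and negative in 4 of 19 alternatives, -0.067 without siLuc replicate 2, 0.15 without siLuc replicate 1 and -0.11 with arrays scaled to the median of all probes.

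GADD45A lies at chr1:67685201-67688334 (GRCh38.p14) and has 3 RefSeq transcripts. ILMN_1694075 read 1711, 1085 and 1361 intensity units in siTARDBP, against 1712, 1144 and 1406 in siLuc. The normalised log2 levels were 10.56, 10.36 and 10.61 in siTARDBP and 10.52, 10.27 and 10.35 in siLuc, and the groups overlapped. The log2 difference was 0.13 ± 0.10 (standard error; 1.09-fold, 95% interval 0.942-fold to 1.27-fold, limma adjusted p = 0.46). With arrays scaled to the median of all probes it was -0.013, and it was positive in the other 18 alternatives, between 0.077 and 0.21.

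A second probe annotated to GADD45A, ILMN_2052208, is no member but reads the same gene. It stood at 10.99, 10.91 and 11.06 on the normalised log2 scale in siTARDBP, against 10.86, 10.80 and 10.84 in siLuc, and here the groups did not overlap. Its log2 difference was 0.15 ± 0.092 (standard error; 1.11-fold, limma adjusted p = 0.31), and -0.0096 with arrays scaled to the median of all probes. The 95% intervals of both GADD45A probes included 0.

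**Figure D3:**
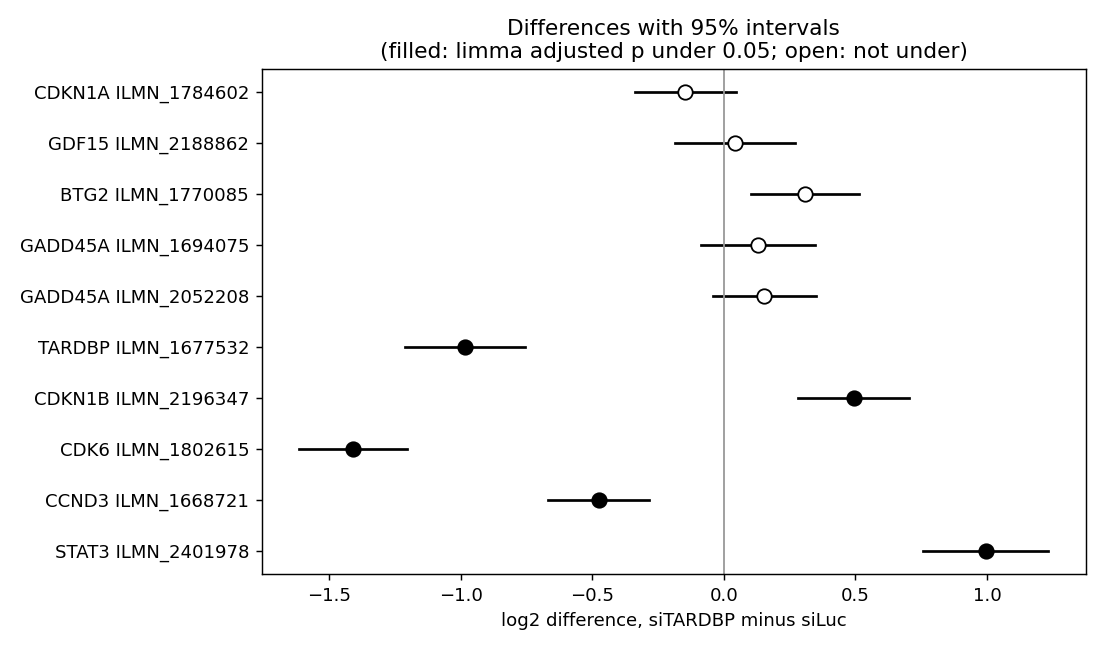
Log2 difference, siTARDBP minus siLuc, with its unadjusted 95% interval from limma for the tested growth arrest probes, the second GADD45A probe, TARDBP and 4 partner or pathway genes; filled points have an adjusted p under 0.05. The growth arrest probes lie between -0.15 and 0.31, all open, beside TARDBP at -0.98, CDK6 at -1.41 and STAT3 at 0.99.

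**Figure D4:**
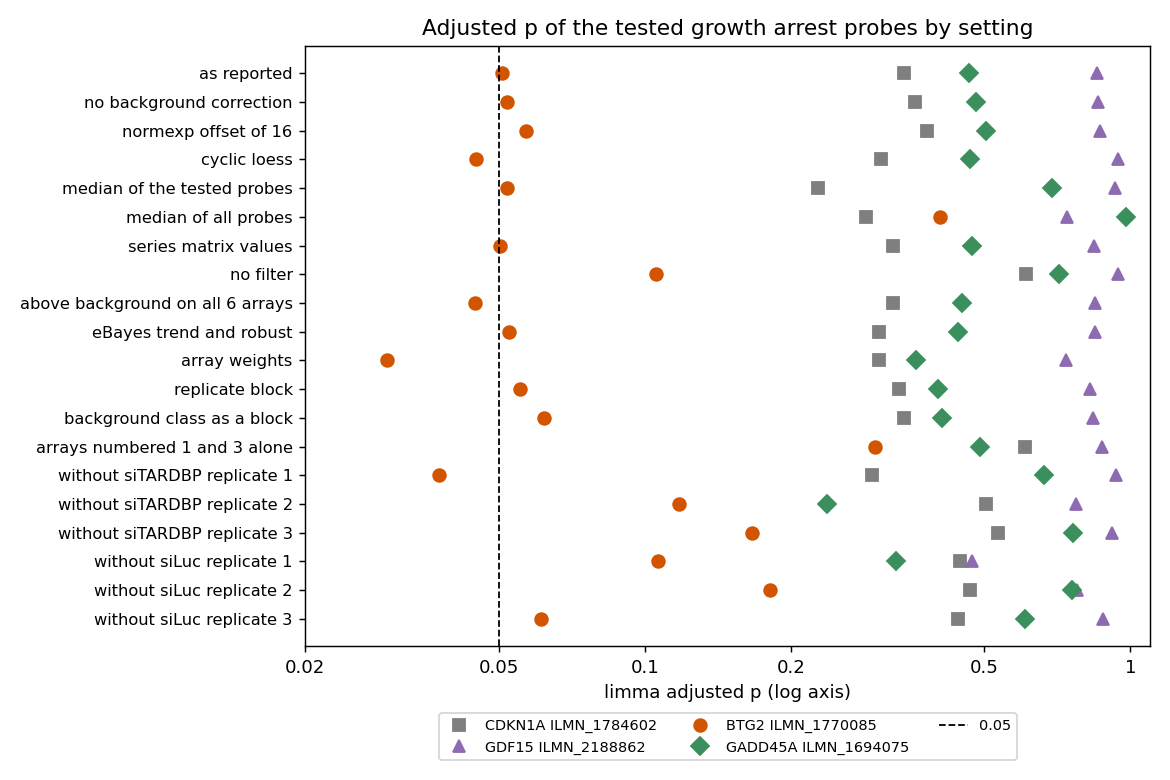
Limma adjusted p (log axis) of the 4 tested growth arrest probes under the reported setting and 19 alternatives, with a dashed line at 0.05. BTG2 crosses the line in 4 alternatives and ranges from 0.029 to 0.40, and the lowest value of the other 3 probes is 0.23.

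The regions just upstream of the RefSeq start sites are given for the 3 members with an entry, CDKN1A, GDF15 and BTG2, because regulators of these genes act through such sequence and the genes differ in it. Each run holds the 250 bases before the start (RefSeq, GRCh38.p14), from chr6:36678464-36678713 for CDKN1A, chr19:18385908-18386157 for GDF15 and chr1:203305269-203305518 for BTG2, all on the plus strand. The CDKN1A window lies inside the span of that gene given above. Windows before other transcript starts of CDKN1A were not searched. Capitals mark matches on either strand to any of 4 motifs. The GC box, which SP1 binds, was searched as GGGCGG. The TATA box, near which transcription complexes assemble, was searched as TATAAA. The CCAAT box was searched as those letters, and the half-site of the cyclic AMP response element as TGACG.
CDKN1A: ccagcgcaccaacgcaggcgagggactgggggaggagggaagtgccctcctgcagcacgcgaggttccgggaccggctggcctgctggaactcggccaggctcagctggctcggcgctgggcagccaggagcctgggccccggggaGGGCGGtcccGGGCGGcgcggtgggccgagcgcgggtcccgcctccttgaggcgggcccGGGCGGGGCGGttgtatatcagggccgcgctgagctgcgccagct
GDF15: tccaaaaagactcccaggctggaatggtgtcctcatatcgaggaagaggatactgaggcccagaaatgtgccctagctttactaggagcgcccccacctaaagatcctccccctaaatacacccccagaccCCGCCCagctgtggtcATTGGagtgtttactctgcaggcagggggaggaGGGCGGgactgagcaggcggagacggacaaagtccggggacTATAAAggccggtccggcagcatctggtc
BTG2: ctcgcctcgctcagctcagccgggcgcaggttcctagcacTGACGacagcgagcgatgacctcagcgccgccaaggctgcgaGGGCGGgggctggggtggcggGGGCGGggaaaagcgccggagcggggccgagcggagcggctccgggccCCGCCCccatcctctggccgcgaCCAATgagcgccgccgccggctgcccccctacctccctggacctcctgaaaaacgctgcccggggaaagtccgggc

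The CDKN1A region had 4 GC boxes, at 104 to 99, 94 to 89, 45 to 40 and 40 to 35 bases before the start, of which the last pair share a base, and no match to the other motifs. The GDF15 region had 2 GC boxes, a CCAAT box on the opposite strand and a TATA box at 29 to 24 bases before the start. The BTG2 region had 3 GC boxes, a CCAAT box at 76 to 72 and a TGACG half-site at 210 to 206 bases before the start. Among 35116 RefSeq promoters of this length, 42.6% held a GC box, 10.7% a TATA box, 32% a CCAAT box and 21.2% a TGACG half-site. The p53 half-site matched in none of the 3 regions and in 5.57% of all promoters, which says only that it is not in these windows. A match is a match of letters, and no binding was measured here.

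Of 14 tested genes for CDKs, cyclins, PCNA, RB proteins and E2F1, whose products p21 acts on or acts through, 3 had lower mRNA and 0 higher, 21.4% against 11.8% of the 9316 genes tested by their brightest probe. CDK6, a G1 kinase that pairs with D-type cyclins, read 674, 499 and 492 intensity units in siTARDBP, against 1980, 1331 and 1729 in siLuc. The groups were far apart, with a log2 difference of -1.41 ± 0.097 (standard error; 2.66-fold lower, limma adjusted p = 1.7e-07). CCND3, which encodes cyclin D3, fell by 0.48 on the log2 scale (1.39-fold, limma adjusted p = 0.0025). CDK4 was lower by a log2 difference of -0.33 (limma adjusted p = 0.046), a call that held in only 9 of 19 alternatives. Among other settings, the call was lost with the replicate block (0.063) and without siTARDBP replicate 1 or 2 or siLuc replicate 1 or 2 (0.095 to 0.18). CCND1 and CCND2, which encode other D-type cyclins, had log2 differences of 0.24 and 0.092 and did not pass. CCND1 had a limma adjusted p of 0.14, with no overlap between the groups on the normalised scale. CDK2, CCNE1, CDK1 and PCNA, which p21 or GADD45A binds, had log2 differences of -0.14, -0.037, 0.040 and -0.011 and did not pass. The median of the list was -0.017, against -0.023 over all tested genes.

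Among the other CDK inhibitors, 1 of 4 tested genes passed (25%, against 11.8% of all tested genes). CDKN1B, which encodes p27, a CDK inhibitor of the same family as p21, read 889, 680 and 699 intensity units in siTARDBP, against 689, 457 and 645 in siLuc. It rose by a log2 difference of 0.49 ± 0.10 (standard error; 1.41-fold, limma adjusted p = 0.0038), and its second probe rose by 0.31. The call was lost in the 4 arrays numbered 1 and 3 (adjusted p = 0.076) and with arrays scaled to the median of all probes (0.11), and held without each single array. CDKN2A and CDKN2B did not exceed background on enough arrays.

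Of 32 other p53 target genes tested, 26 did not pass, 2 were higher and 4 were lower (18.8% called, against 11.8% of all tested genes). Their median log2 difference was -0.092, against -0.023 over all tested genes. CYFIP2 fell by 0.80 on the log2 scale (1.74-fold, limma adjusted p = 8.8e-05), kept its call in all 19 alternatives, and fell by 0.39 on its second probe. PMAIP1, which encodes the BH3-only protein NOXA, was lower by -0.42 (limma adjusted p = 0.013), a call lost without siLuc replicate 1 (0.068), and its second probe stood at 0.0019. DDB2 (-0.32), a DNA damage sensor, and SPATA18 (-0.41) were lower and PHLDA3 (0.30) and TP53INP1 (0.44) were higher. Each of these 4 calls was lost when some single arrays were left out. PHLDA3 lost its call without any one of the 6 arrays, DDB2 without any but siTARDBP replicate 2, SPATA18 without siTARDBP replicate 1 or 3 or siLuc replicate 1 or 2, and TP53INP1 without siTARDBP replicate 1 or 3 or siLuc replicate 2 or 3. The adjusted p then reached 0.13, 0.16, 0.12 and 0.18 for PHLDA3, DDB2, SPATA18 and TP53INP1. The dimmer probe of TP53INP1 was higher by 0.60 (limma adjusted p = 0.0011) with no overlap between the groups. MDM2, the ubiquitin ligase that p53 induces, had a log2 difference of 0.14 (limma adjusted p = 0.41). Of 13 tested regulators of p53, 0 passed in limma by their brightest probe, against 11.8% of all tested genes. By the same probe of each gene, an unadjusted limma p under 0.05 was found for 0 of them, against 25.5% of all tested probes. Their log2 differences lay between -0.16 and 0.17. A dimmer probe of HIPK2 was higher by 0.52 (limma adjusted p = 0.0062) where its brightest stood at 0.17.

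Tested genes of the BTG and TOB family and the CCR4-NOT complex, with PRMT1, numbered 13. Of these, 2 were called, 15.4% against 11.8% of all tested genes. CNOT3 was higher by 0.41 (limma adjusted p = 0.0084) and CNOT1, the scaffold of the complex, was lower by -0.50 (limma adjusted p = 0.0074). The call of CNOT1 was lost without siTARDBP replicate 3 (0.051) and without siLuc replicate 2 (0.061), and its dimmer probe stood at 0.055. CNOT3 kept its call without each single array and lost it in the 4 arrays numbered 1 and 3 (0.054) and with arrays scaled to the median of all probes (0.24). CNOT7, a deadenylase that BTG2 binds, had a log2 difference of 0.086 by its brightest probe and 0.40 by another (limma adjusted p = 0.012). CNOT8, also of this complex, stood at -0.31 by its brightest probe (limma adjusted p = 0.087) and -0.075 by its other probe, and did not pass. Of 6 tested genes of the GADD45 family and its partners, 0 passed in limma, against 11.8% of all tested genes. An unadjusted limma p under 0.05 was found for 0 of the 6, against 25.5% of all tested probes. GADD45B stood at -0.12 and MAP3K4 at -0.10.

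GFRAL and RET, the receptor and coreceptor of GDF15, did not exceed background on enough arrays to be tested. Tested genes of TGF-beta receptors, SMAD proteins and GDF15 processing, with ERBB2, numbered 7. Of these, TGFBR2 alone passed (14.3%, against 11.8% of all tested genes). It was lower by -0.32 (limma adjusted p = 0.038) on its brightest probe, while its other probes stood at -0.24 and 0.10 and did not pass, and it lost that call without any one of the 6 arrays, with adjusted p between 0.053 and 0.15.

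Of 15 tested transcription regulators and stress genes linked to the 4 members, 2 were higher and 2 were lower (26.7%, against 11.8% of all tested genes). STAT3, a cytokine-activated transcription factor, read 1274, 735 and 1015 intensity units in siTARDBP, against 667, 435 and 545 in siLuc, and its brightest probe rose by a log2 difference of 0.99 ± 0.11 (standard error; 1.99-fold, limma adjusted p = 2.0e-05). The other STAT3 probes rose by 0.97 each (limma adjusted p = 1.3e-05 and 2.8e-05). MYC, which represses CDKN1A, rose by 0.45 (limma adjusted p = 0.0034) on its brightest probe, which did not pass with arrays scaled to the median of all probes (0.23). The other MYC probe stood at 0.27 and did not pass (limma adjusted p = 0.070). BRCA1, a repair protein that acts on GADD45A transcription, fell by 0.48 (limma adjusted p = 0.0046) on its brightest probe, which did not pass in the 4 arrays numbered 1 and 3 (0.074), and by 0.45 (0.014) on its other probe. EGR1, an immediate early factor that can induce GDF15, was lower by -0.42 (limma adjusted p = 0.011), a call lost without siTARDBP replicate 1 (0.052) or siLuc replicate 1 (0.058). ATF4 and DDIT3, factors of the integrated stress response that raise GDF15, had log2 differences of -0.031 and 0.12 and did not pass. Dimmer probes of SMAD7 and FOXO3 were higher by 0.40 and 0.31 (limma adjusted p = 0.017 and 0.045). The brightest probes of SMAD7 and FOXO3 stood at 0.077 and -0.12 and did not pass.

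**Figure D5:**
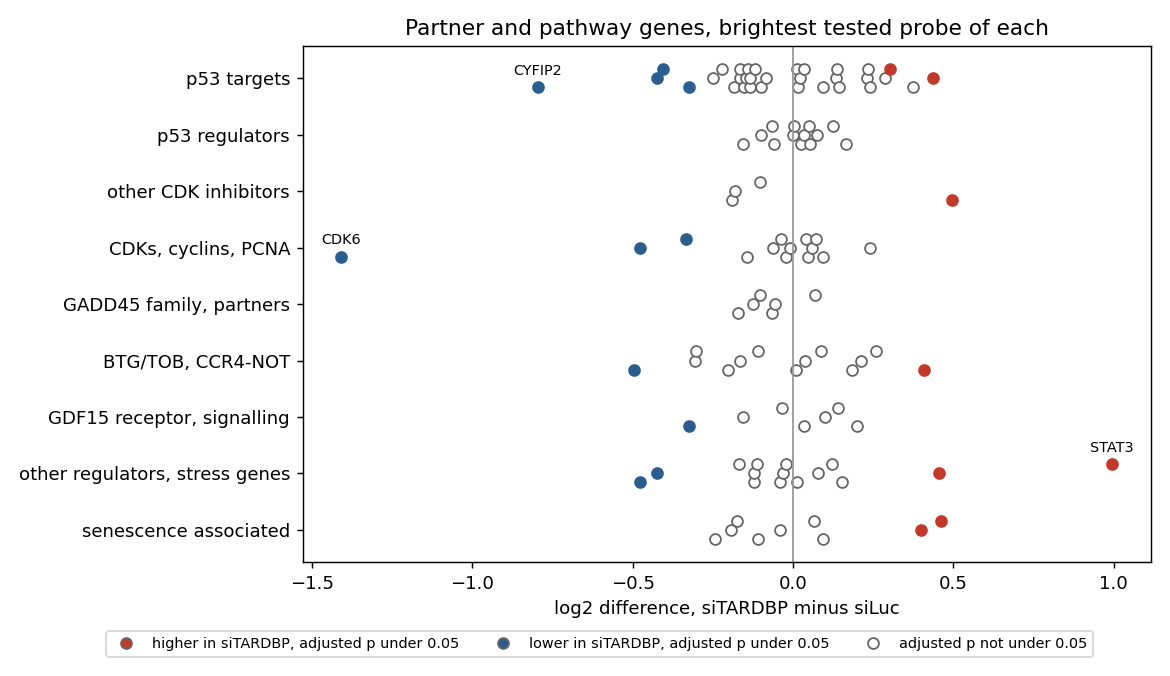
Log2 difference, siTARDBP minus siLuc, of the brightest tested probe of each partner or pathway gene, by list from top to bottom; red points are higher and blue points lower in siTARDBP with an adjusted p under 0.05, and open points did not pass. CDK6 at -1.41, CYFIP2 at -0.80 and STAT3 at 0.99 stand apart from the rest.

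The probes most like each member over the 6 arrays were found by the root mean square difference of log2 values relative to the siLuc mean, among 12266 tested probes with 1 gene symbol. CDKN1A lay nearest to TFAP2C, MZF1 and H2AC18, with differences of 0.019, 0.021 and 0.024. GDF15 lay nearest to IGFBP3, SPCS3 and CD47, with 0.026, 0.044 and 0.048. BTG2 lay nearest to MBIP, RAD23B and TSPYL2, with 0.030, 0.046 and 0.047. These 3 had limma adjusted p of 0.053, 0.054 and 0.043. A place near the threshold like that of BTG2 follows from choosing probes with like values. GADD45A lay nearest to RPL37, SASH1 and SGK1, with 0.023, 0.030 and 0.035. With 6 arrays, such likeness is a description of these values.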

How the data were processed

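Expression was measured on 6 one-colour Illumina HumanHT-12 arrays. The deposited table holds linear probe intensity values written by BeadStudio, per the labels. The version of that program and any background subtraction before deposit are not stated. A second deposited table holds log2 values with the ranks of the first on 1 distribution shared by all arrays (median 6.12), whose making the labels do not state. It served as an alternative. Groups and replicate numbers came from the sample titles.

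Background was corrected by normexp (offset 50), arrays were quantile-normalised, and log2 values were tested with limma 3.58.1 (lmFit and eBayes, R 4.3.3), without a block, with Benjamini-Hochberg adjustment over all tested probes and a threshold of 0.05. The offset compresses fold changes of dim probes. No detection p-values were in the tables, so the lower side of each array's dim peak was mirrored and the level above 95% of that background was taken. Probes above it on at least 3 of 6 arrays were tested, 15136 of 47231 (32%). The procedure was tested on simulated data.

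GEO's platform annotation named 1 gene for 30113 probes, several for 8 and none for 17110. Of several tested probes of a gene, the brightest stood for it in lists. Named genes were the members, TARDBP, called list genes (at most 5 a direction), uncalled partners of the members and the 3 nearest probes of each member. MDM2, ATF4, DDIT3, HIPK2, CCND1, CCND2, SMAD7, FOXO3, CNOT8, CNOT7's and CD44's other probes were named after their values were seen. The members, lists and alternatives were chosen with earlier results of these data known. The number of arrays limits the precision.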

Additional observations from a re-analysis of the deposited data

How the results depend on the processing

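The log2 difference of BTG2 passed the threshold, which it misses as reported, with cyclic loess (0.31), with probes above background on all 6 arrays (0.31, fewer probes tested), with array weights (0.33) and without siTARDBP replicate 1; leaving out single arrays gave 0.27 to 0.38. CDKN1A, GDF15 and GADD45A stayed outside the threshold in all 19 alternatives, and TARDBP passed in the 18 in which it was tested, being untested where all 6 arrays had to exceed background. Probes called numbered 1015 (282 higher) with arrays scaled to the median of all probes, 764 (429 higher, 335 lower) at an adjusted p of 0.01, which is stricter by construction, and 848 (476 higher, 372 lower) in the arrays numbered 1 and 3, which are fewer samples. With single arrays left out, the calls numbered 953 to 1800, 529 to 942 higher and 424 to 858 lower. The lowest totals came without siLuc replicate 2 (953) and without siTARDBP replicate 3 (968, 529 higher, 439 lower), and lower probes numbered 535 without siTARDBP replicate 1 and 512 without siLuc replicate 1. For the all-probe scaling the cause was not tested.

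With the replicate number as a block, BTG2 kept 0.31 (limma adjusted p = 0.055), and CDKN1A, GDF15 and GADD45A had adjusted p of 0.33, 0.83 and 0.40. The block called 1747 probes, 915 higher and 832 lower. The deviations of same-numbered arrays from their group means correlated by 0.11, 0.10 and -0.0025 across tested probes, against -0.16 to 0.064 for other pairs. The first and second values lay above every other pair and the third did not, so these values do not settle whether the numbers mark pairs. Probes not above background, such as ILMN_1787212 and those of GFRAL and RET, cannot tell low from absent transcripts.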

Other observations

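Of 9 tested genes associated with senescence, 2 were higher and 0 lower in siTARDBP (22.2%, against 11.8% of all tested genes), with a median log2 difference of -0.041. CCL2, a chemokine that draws monocytes, rose by 0.46 on the log2 scale (1.38-fold, limma adjusted p = 0.0031) and kept its call without each single array, but not with arrays scaled to the median of all probes (0.098). IL6, an inflammatory cytokine, was higher by 0.40 (limma adjusted p = 0.040), a call lost without siTARDBP replicate 1 or 3 or siLuc replicate 2 or 3 (adjusted p up to 0.21).

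The 3 probes of CD44, a cell surface receptor for hyaluronan, gave different answers. ILMN_2348788 was higher by a log2 difference of 0.69 (limma adjusted p = 0.00025), while the brightest, ILMN_1803429, stood at 0.099 and ILMN_1778625 at 0.13. Which transcripts each of them reads was not analysed here. Among TDP-43 related genes, POLDIP3, a splicing target of TDP-43, was lower by -0.33 (limma adjusted p = 0.039), a call lost without siTARDBP replicate 2 or 3 or siLuc replicate 2 or 3 (adjusted p up to 0.16).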
